A study of Homo sapiens with 6 samples.

Results

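Fibrillar collagens are the secreted proteins that pack side by side into the banded fibrils of connective tissue. The family analysed here holds 10 chains, found by gene symbol among the 35238 symbols of a raw count table. They are COL1A1, COL1A2, COL2A1, COL3A1, COL5A1, COL5A2, COL5A3, COL11A1, COL11A2 and COL27A1. The family was chosen by the levels of COL5A2 and COL11A1, which were already known to differ in opposite directions in this comparison, so the values of these 2 chains are given as a description with no test, and they support nothing else. All 10 symbols are in the table, 8 of them passed the expression filter, and COL5A1 and COL5A3 did not. COL3A1 passed that filter only through the knockout libraries and COL11A1 only through the wildtype libraries, so both had to differ between the groups in order to pass, and their values are given as descriptions.

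RNA was sequenced from 3 libraries of HAP1 cells with a DEGS1 knockout and from 3 libraries of wildtype HAP1 cells, all untreated. HAP1 is an established human cell line, near-haploid and adherent, that derives from a chronic myeloid leukaemia. DEGS1 encodes the desaturase that turns dihydroceramide into ceramide, and the comparison asks what its loss does to the cell. Per the labels, cells of both genotypes were kept at 5% serum, and RNA was taken 24 h after they were split. The labels do not give the number of knockout clones or say whether the replicates were separate cultures, so each p-value is relative to a spread among libraries that may be technical. Same-numbered libraries of the 2 genotypes also carry a shared code in the labels, whose meaning is not stated there, so a batch shared by such libraries cannot be told apart from their number.

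Totals were 19389644 to 27659835 counts in knockout libraries and 17322756 to 28988522 in wildtype libraries, so that the floor of 3 counts used here lay at 0.109 to 0.161 CPM. DEGS1 stood at 9.49, 6.88 and 10.4 CPM in knockout libraries and at 105, 123 and 95.5 CPM in wildtype libraries. Of 16954 genes tested, 756 (4.46%) passed edgeR's quasi-likelihood test at a Benjamini-Hochberg adjusted p under 0.05, 256 (1.51%) higher and 500 (2.95%) lower in the knockout. The 3 libraries of one genotype lay entirely on one side of the other genotype's in 20.8% of all genes tested. The count of passing genes was 3825 without wildtype replicate 2, and 424, 380 and 441 without knockout replicate 1, knockout replicate 3 and wildtype replicate 1. Of 10 blood cell markers, 6 were tested and none passed edgeR's test (1 had an unadjusted p under 0.05). Of the 10, 5 averaged above 1 CPM in either genotype and HBG1 had no count in any library. The summed level of the 10 was 16.1 to 20.1 CPM in knockout libraries and 13.2 to 24.5 CPM in wildtype libraries. In bulk RNA of this kind, fewer cells that express a gene and less of its RNA per cell cannot be told apart.

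A fibrillar collagen molecule is wound from chains built around a long repeat in which glycine occupies every position facing the axis of the helix. Types II, III and XXVII are assembled from copies of a single chain. Type I joins COL1A1 with COL1A2, type V joins COL5A1 with COL5A2 and in some tissues COL5A3, and type XI of cartilage joins COL11A1, COL11A2 and the COL2A1 product. The minor types V and XI lie inside the fibrils of the major types and set their diameter, and hybrid molecules of COL5A2 with COL11A1 are known. COL5A1 is regarded as the chain that type V molecules need, because the COL5A2 product is not known to form a helix with itself.

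The repeat can be read directly in the coding sequence. The first 63 bases of the longest repeat are shown for COL5A2, COL11A1 and COL2A1, the 3 chains on which the results turn. They come from GENCODE 29 transcripts (GRCh38). Capitals mark the GGN codon, which encodes glycine, at the start of each triplet of codons. Further GGN codons inside a triplet, as in COL5A2 and COL11A1, are in lower case.
COL5A2: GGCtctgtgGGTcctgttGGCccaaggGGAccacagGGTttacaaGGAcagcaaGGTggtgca
COL11A1: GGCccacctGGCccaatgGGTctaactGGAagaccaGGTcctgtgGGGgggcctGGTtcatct
COL2A1: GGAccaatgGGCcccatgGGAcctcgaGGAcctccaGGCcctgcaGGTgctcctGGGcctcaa
In each of the 3 stretches a GGN codon opens all 7 triplets of codons. The longest run of such triplets in the longest annotated coding transcript was 339 for COL5A2, 338 for COL11A1 and 339 for COL2A1. In COL1A1, COL1A2, COL3A1, COL5A1, COL5A3 and COL11A2 it was 338, 339, 343, 338, 337 and 338 triplets. COL27A1 stood apart from these 9 chains, with a longest run of 217 triplets.

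**Figure D1:**
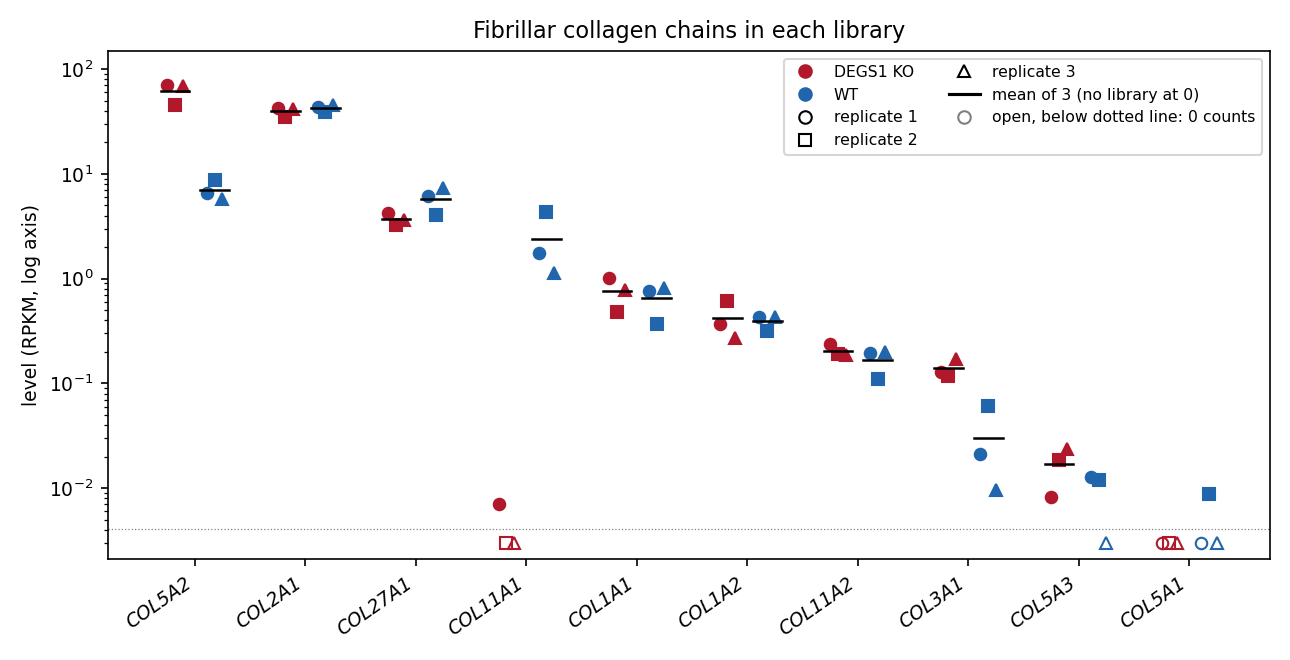
Level of each of the 10 chains in each of the 6 libraries, in RPKM on a log axis, with knockout (red) left of wildtype (blue) and 1 marker shape per replicate number. COL5A2 is higher in all 3 knockout libraries, COL11A1 is at 0 or at 1 count there, COL2A1 is close to 40 RPKM in both genotypes, and COL5A1 has no count in any knockout library.

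Besides COL5A2, the chain with the most RNA in both genotypes was COL2A1, of the homotrimeric type II collagen of cartilage and notochord. Per length, COL5A2 averaged above COL2A1 in the knockout (61.9 RPKM) and below it in wildtype (6.997 RPKM). COL2A1 stood at 217, 176 and 212 CPM in knockout libraries, against 221, 198 and 228 CPM in wildtype libraries. The 2 ranges overlapped. Per length, COL2A1 averaged 39.7 ± 4.41 RPKM in the knockout and 42.5 ± 3.14 RPKM in wildtype (SD, n = 3 each). Its log2 fold change, given throughout as knockout over wildtype with its standard error (SE), was -0.10 (SE 0.13, adjusted p = 0.746 in edgeR), with a 95% interval of -0.38 to 0.18.

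The chains of type I collagen, the main collagen of bone, skin and tendon, were low in both genotypes. COL1A1 had 133, 85 and 144 counts in knockout libraries and 130, 67 and 102 counts in wildtype libraries, or 6.82, 3.25 and 5.25 CPM against 5.11, 2.49 and 5.46 CPM. COL1A2 had 39, 87 and 40 counts in knockout libraries and 59, 46 and 44 in wildtype libraries, or 2.00, 3.33 and 1.46 CPM against 2.32, 1.71 and 2.36 CPM. Both chains overlapped between genotypes. Their log2 fold changes were 0.23 (SE 0.33, 95% interval -0.50 to 0.96, adjusted p = 0.772 in edgeR) for COL1A1 and 0.09 (SE 0.34, 95% interval -0.64 to 0.83, adjusted p = 0.914 in edgeR) for COL1A2. Both intervals include differences in either direction, and the sign of both values turned when single libraries were left out. Per length, the ratio of COL1A1 to COL1A2 was 2.74, 0.786 and 2.90 in knockout libraries and 1.77, 1.17 and 1.86 in wildtype libraries, so replicate 2 had the lowest ratio in each genotype.

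COL3A1, the single chain of type III collagen, which accompanies type I in blood vessels and skin, had few reads. It had 14, 17 and 26 counts in knockout libraries and 3, 9 and 1 in wildtype libraries. That is 0.718, 0.650 and 0.948 CPM against 0.118, 0.334 and 0.0536 CPM, and every knockout library lay above every wildtype library. As a description, since only the knockout libraries met the filter, the fitted log2 fold change was 2.08 (SE 0.55). It was 3.04 without wildtype replicate 2, the highest wildtype library, and between 1.74 and 2.203 without each of the other 5 libraries. In the fit with no filter, which does not select on either genotype, it was 2.09 (adjusted p = 0.0174 in edgeR). Of 13 other settings COL3A1 passed in 2, that fit and the fit without wildtype replicate 2. The latter kept the filter and left out the highest wildtype library, so it is a description too. With the filter and all libraries COL3A1 did not pass in edgeR, the DESeq2 Wald test or limma voom, and no p is given for these fits.

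COL5A2, the partner chain of type V collagen, was the chain with the largest gain in reads. It had 9734, 8517 and 13414 counts in knockout libraries and 1173, 1657 and 765 counts in wildtype libraries, or 499, 326 and 489 CPM against 46.1, 61.5 and 41.0 CPM. Every knockout library lay far above every wildtype library. The means were 438 ± 97.4 CPM in the knockout and 49.5 ± 10.7 CPM in wildtype (SD, n = 3 each), a ratio of 8.84 and a log2 fold change of 3.14 (SE 0.21).

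Its type V partners were not detected or were near the floor. COL5A1 had no count in any of the 3 knockout libraries, where the floor of 3 counts corresponds to 0.109 to 0.154 CPM, and 0, 2 and 0 counts in wildtype libraries. COL5A3, the chain that replaces a COL5A1 copy in some tissues, had 1, 3 and 4 counts in knockout libraries and 2, 2 and 0 in wildtype libraries. Both genes were at or near the floor in both genotypes and were not tested, so no fold change is given and a difference between genotypes was not detectable at this depth. COL5A2 thus reached 325.7 CPM or more in each knockout library where COL5A1 was not detected.

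COL11A1, the type XI chain that can also join COL5A2, moved the other way. It had 1, 0 and 0 counts in knockout libraries, against 327, 855 and 154 counts in wildtype libraries, or 0.0513, 0 and 0 CPM against 12.9, 31.8 and 8.25 CPM. The summed counts of 1 and 1336 gave a wildtype-over-knockout ratio of 1375 after scaling, with a 95% exact (Clopper-Pearson) interval of 246 to 54333 that covers counting error only. The 3 wildtype libraries themselves spread widely, with replicate 2 the highest and replicate 3 the lowest.

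The other type XI chain, COL11A2, was scarce in both genotypes. It had 30, 32 and 33 counts in knockout libraries and 32, 19 and 24 in wildtype libraries, or 1.54, 1.22 and 1.203 CPM against 1.26, 0.706 and 1.29 CPM. The groups overlapped, with a log2 fold change of 0.29 (SE 0.34, 95% interval -0.46 to 1.04, adjusted p = 0.716 in edgeR). Per length, COL11A1 exceeded COL11A2 by 8.96, 39.5 and 5.63 times in the wildtype libraries, whereas in the knockout COL11A1 was below COL11A2 in all 3 libraries (ratios of 0.0292, 0 and 0).

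COL27A1, a fibrillar collagen of cartilage with a shortened and interrupted helix, was lower in the knockout without passing the test. It stood at 32.7, 25.4 and 28.4 CPM in knockout libraries and at 47.6, 31.3 and 57.2 CPM in wildtype libraries, and wildtype replicate 2 fell inside the knockout range. The log2 fold change was -0.65 (SE 0.20, 95% interval -1.09 to -0.22, adjusted p = 0.107 in edgeR). It passed in 4 of 14 other settings, which were the fit without wildtype replicate 2 (log2 fold change -0.86, adjusted p = 0.000569 in edgeR), the replicate number as a block (adjusted p = 0.0262 in edgeR), no filter on low counts (adjusted p = 0.0445 in edgeR) and the DESeq2 Wald test (adjusted p = 0.0285). The remaining fibrillar chain of the genome, COL24A1, is not among the 10 and is described with the other collagens.

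**Figure D2:**
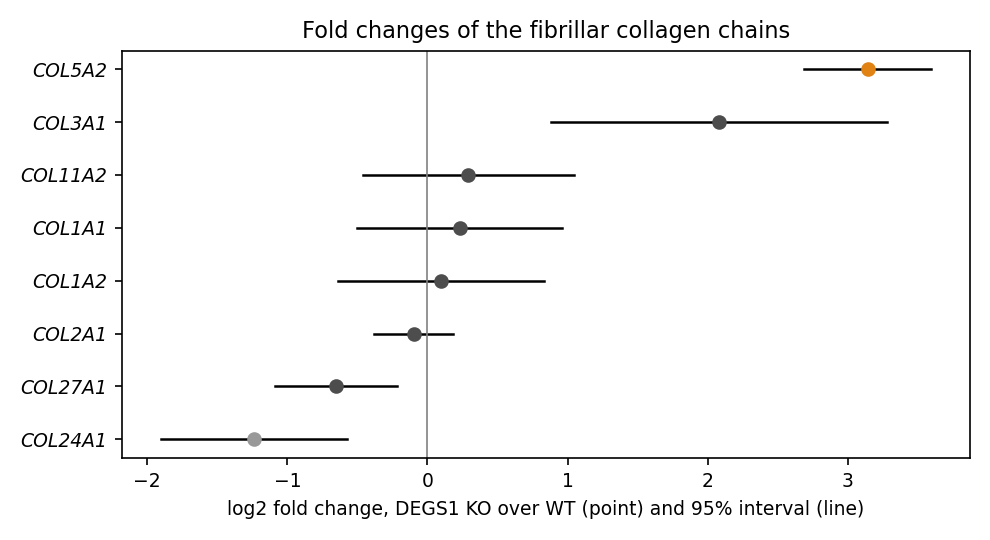
Log2 fold change, knockout over wildtype, of the tested chains and of COL24A1 (grey), with its 95% interval from edgeR's fit. COL11A1 is left out because its fitted value depends on the prior count. COL5A2 lies at 3.14, and the intervals of COL2A1, COL1A1, COL1A2 and COL11A2 include 0. The intervals of COL5A2, which chose the family, and of COL3A1, which met the filter only through the knockout, are descriptions.

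Among the 8 chains besides COL5A2 and COL11A1, 5 met the filter through both genotypes and 0 of them passed edgeR's test, beside 4.46% of all genes tested and 3.93% of the 16642 genes that met the filter through both genotypes. COL27A1 alone of the 5 had an unadjusted p under 0.05, as had 16.5% of all genes tested. DESeq2 passed 1 of the 5, COL27A1, and limma voom passed 0. Without wildtype replicate 2, edgeR passed COL27A1 alone of the 5. Of the 8 chains of the whole family that passed the filter, 3 did not overlap between genotypes, namely COL5A2, COL3A1 and COL11A1. Since the rule was built on this contrast, nothing is read from that share beside the 20.8% of all genes.

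**Figure D3:**
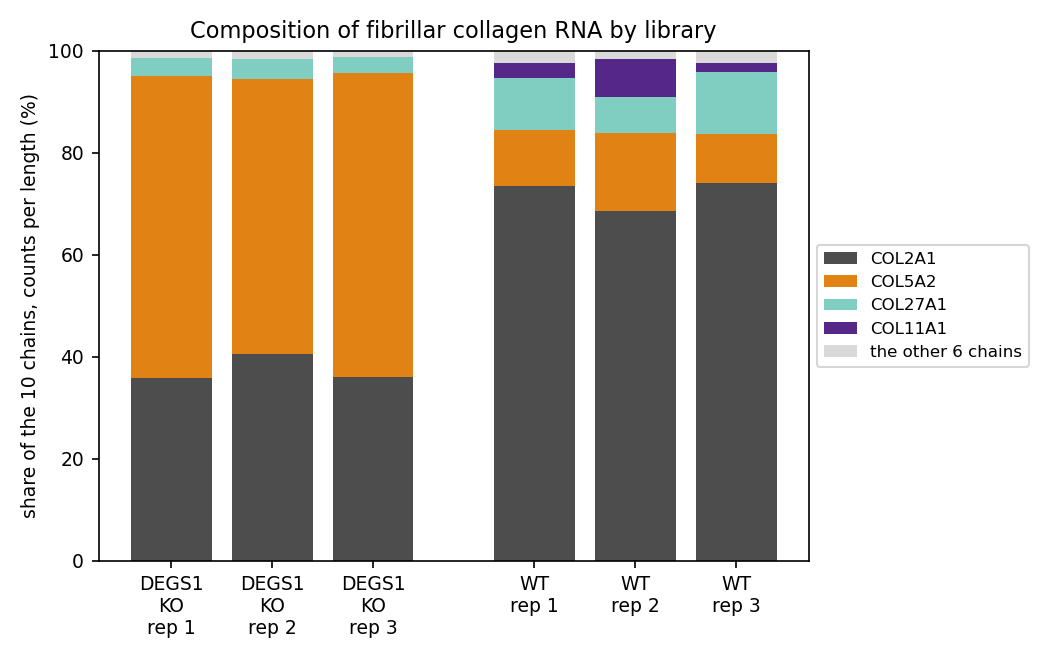
Share of each chain in the summed RNA of the 10 chains, in counts per transcript length, for each library. In the knockout COL5A2 makes up 53.9 to 59.6% and COL2A1 35.8 to 40.6%, and in wildtype COL5A2 makes up 9.53 to 15.3% and COL2A1 68.5 to 74.1%.

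Set against each other per length, the chains changed their order between genotypes. In the knockout the order of mean level was COL5A2 (61.9 ± 13.8 RPKM), COL2A1 (39.7 ± 4.41 RPKM), COL27A1 (3.70 ± 0.468 RPKM) and COL1A1 (0.759 ± 0.266 RPKM) (SD, n = 3). In wildtype it was COL2A1 (42.5 ± 3.14 RPKM), COL5A2 (6.997 ± 1.51 RPKM), COL27A1 (5.82 ± 1.68 RPKM), COL11A1 (2.40 ± 1.70 RPKM) and COL1A1 (0.647 ± 0.242 RPKM) (SD, n = 3). The wildtype levels of COL5A2 and COL27A1 were closer than their spread over libraries. COL1A2 followed COL1A1, at 0.418 ± 0.178 RPKM in the knockout and 0.393 ± 0.0673 RPKM in wildtype (SD, n = 3 each), and the libraries of both chains overlapped in either genotype. COL11A2, COL3A1, COL5A3 and COL5A1 each averaged under 0.21 RPKM in both genotypes.

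The summed level of the 10 chains was 119, 85.3 and 116 RPKM in knockout libraries and 59.3, 56.9 and 60.7 RPKM in wildtype libraries. Without COL5A2 the sum over the other 9 was 48.7, 39.4 and 46.9 RPKM in knockout libraries and 52.8, 48.2 and 55.0 RPKM in wildtype libraries, and the ranges overlapped. The ratio of COL5A2 to COL2A1 per length was 1.65, 1.33 and 1.65 in knockout libraries and 0.150, 0.223 and 0.129 in wildtype libraries. The ratio of COL11A1 to COL2A1 was at most 0.000164 in a knockout library, against 0.0403, 0.111 and 0.0250 in wildtype libraries. These sums and ratios contain the chains that chose the family and are descriptions only.

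Wildtype replicate 2 stood at an edge of its group for every chain tested. It was the highest of the 3 wildtype libraries for COL5A2, COL11A1 and COL3A1 and the lowest for the other 5, namely COL1A1, COL1A2, COL2A1, COL11A2 and COL27A1. It was also the most deeply sequenced library. Over genes in general it lay apart from wildtype replicates 1 and 3 (chi-square over its degrees of freedom, 34.1 and 52.9). Those 2 replicates differed by 12.8 from each other. Knockout replicates 2 and 3 were closer to wildtype replicate 2 than either of them (21.4 and 25.2), and knockout replicate 1 was at 47.5. The share of all genes with wildtype replicate 2 at an edge was not counted, so its place is not read as a trait of the chains. The part of this library in the results of COL3A1 and COL27A1 is given by the values without it above. Without it the fitted log2 fold changes were 3.33 for COL5A2 and -9.11 for COL11A1, against 3.14 and -9.87 with all libraries.

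COL3A1 and COL5A2 are neighbours on chromosome 2 in the RefSeq order of genes (GRCh38.p14, used here only for order). The 5 nearest tested genes beyond them did not pass edgeR's test, and none of the 5 had an unadjusted p under 0.05. On one side GULP1, an engulfment adaptor, had a log2 fold change of -0.10 (SE 0.13) and TFPI, an inhibitor of blood coagulation, one of -0.63 (SE 0.29). On the other side WDR75, a ribosome assembly factor, had one of 0.17 (SE 0.12), the iron exporter SLC40A1 0.42 (SE 0.22) and ASNSD1 0.09 (SE 0.14). TFPI passed without wildtype replicate 2 (log2 fold change -0.92, adjusted p = 6.66e-05 in edgeR). Around COL11A1 on chromosome 1, none of the 6 nearest tested genes passed (edgeR adjusted p from 0.276 to 0.943), although 1, AMY2B, had an unadjusted p under 0.05. OLFM3 and RNPC3, the nearest on each side, had log2 fold changes of -0.65 (SE 0.41) and -0.12 (SE 0.11). Next to them lay the sphingosine 1-phosphate receptor S1PR1, at 3.02 CPM in the knockout and 2.91 CPM in wildtype, and the amylase AMY2B, whose log2 fold change of -0.64 passed without wildtype replicate 2 (-0.79, adjusted p = 0.0354 in edgeR). DPH5 (0.18, SE 0.11) and the methyltransferase PRMT6 (0.03, SE 0.14) completed the 6.

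The genes whose profile over the 6 libraries was most like that of COL5A2 were the sodium channel SCN2A, the transcript AC111155.1 and the sulfatase ARSE, with root mean square differences of 0.26, 0.27 and 0.30 in centred log2 CPM. SCN2A stood at 2.31, 2.06 and 3.39 CPM in knockout libraries and at 0.275, 0.446 and 0.214 CPM in wildtype libraries. AC111155.1 stood at only 0.513, 0.497 and 0.583 CPM in knockout libraries and had no count in any wildtype library. Its fitted log2 fold change was 6.69, against 3.14 for COL5A2, so its likeness depends on the prior count of 2 in this measure. For COL11A1 the nearest were FASTKD2 (0.91), IFI16 (0.92) and TCEAL9 (0.94), all low in the knockout and all farther from it than the nearest genes were from COL5A2. The measure is dominated by the step between genotypes.

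RefSeq promoter windows (GRCh38.p14), from 250 bases before the annotated start to 50 after it, matched 5 of the 10 chains. COL1A1, COL1A2, COL2A1, COL3A1 and COL5A2 had no entry. Each window was searched on both strands for CCAAT, which the factor NF-Y binds, for GGGCGG, which SP1 binds, and for the TATA box TATAAA, which 34.6%, 45.0% and 11.5% of 35116 windows hold. These motifs do not overlap each other in the windows shown. The windows of COL11A1, which is all but silent in the knockout, of COL27A1 and of the undetected COL5A1 are printed on the strand of the gene, with CCAAT and GGGCGG matches of either strand in capitals.
COL11A1 (chr1:103108473-103108772, minus strand): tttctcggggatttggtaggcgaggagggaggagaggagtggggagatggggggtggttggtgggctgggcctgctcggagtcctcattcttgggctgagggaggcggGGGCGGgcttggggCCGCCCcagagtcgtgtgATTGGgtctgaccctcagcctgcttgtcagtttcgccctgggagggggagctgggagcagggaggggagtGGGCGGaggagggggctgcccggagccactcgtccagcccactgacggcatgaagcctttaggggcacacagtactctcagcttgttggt
COL27A1 (chr9:114155287-114155586, plus strand): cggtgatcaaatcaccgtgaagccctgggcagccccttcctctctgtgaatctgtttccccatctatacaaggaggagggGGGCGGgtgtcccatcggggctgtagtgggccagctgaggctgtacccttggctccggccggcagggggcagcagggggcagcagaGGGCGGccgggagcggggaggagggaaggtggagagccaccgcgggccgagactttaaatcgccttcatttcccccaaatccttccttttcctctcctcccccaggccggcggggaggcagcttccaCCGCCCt
COL5A1 (chr9:134641553-134641852, plus strand): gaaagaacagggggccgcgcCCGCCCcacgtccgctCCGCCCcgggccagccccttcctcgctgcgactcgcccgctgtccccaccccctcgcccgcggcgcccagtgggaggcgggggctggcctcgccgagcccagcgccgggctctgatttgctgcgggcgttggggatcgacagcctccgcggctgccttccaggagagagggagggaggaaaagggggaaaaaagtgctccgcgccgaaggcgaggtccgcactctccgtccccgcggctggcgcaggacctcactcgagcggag
The COL11A1 window held 1 CCAAT match, on the reverse strand, and 3 GGGCGG matches. The COL27A1 window held 3 GGGCGG matches and no CCAAT, and that of COL5A1 held 2 GGGCGG matches and no CCAAT. None of the 5 windows held TATAAA. The dinucleotide CG occurred 12 times in the COL11A1 window, 16 times in that of COL27A1 and 36 times in that of COL5A1, against a median of 14 over all windows. The NF-Y subunits NFYA, NFYB and NFYC had log2 fold changes of -0.03 (SE 0.15), 0.03 (SE 0.12) and -0.01 (SE 0.11), and SP1 one of -0.05 (SE 0.12).

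**Figure D4:**
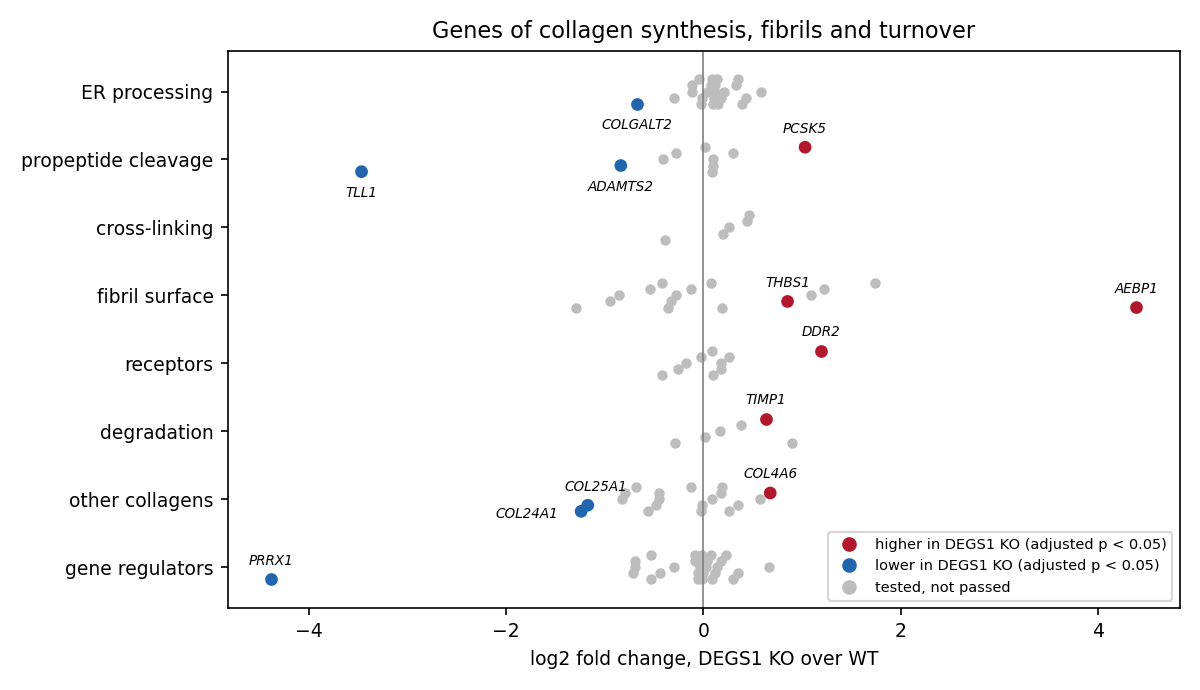
Log2 fold change, knockout over wildtype, of each tested gene in 8 lists of collagen synthesis, fibrils and turnover (1 point per gene, named where it passed edgeR's test). In the 8 lists 6 genes lie to the right as higher and 6 to the left as lower in the knockout, with AEBP1 at 4.39 and PRRX1 at -4.38 the farthest. TLL1 and PRRX1 met the filter only through wildtype.

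The genes that make, cut, bind and degrade collagen were taken from 8 lists of 142 genes, 117 of them tested. In edgeR's test 6 rose and 6 fell, 10.3% together beside 4.46% of all genes, with a median log2 fold change of 0.03 beside -0.02 for all genes. TLL1 and PRRX1, 2 of the 6 that fell, met the filter only through the wildtype libraries (3 there, and at most 1 in the knockout), so they had to differ in order to be tested. Without the 4 pathway genes of this kind, 10 of 113 passed (8.85%), 6 higher and 4 lower, beside 3.93% of all genes that met the filter through both genotypes. With scaling by library size only 8 rose and 5 fell, and with upper-quartile scaling 8 rose and 4 fell. Without wildtype replicate 2 the lists held 37 passing genes and without wildtype replicate 1 they held 7. The shares of the single lists rest on 5 to 28 tested genes each, and nothing is read from them.

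Of 23 genes that modify and fold procollagen in the endoplasmic reticulum, all tested, 16 had a positive and 7 a negative log2 fold change. An unadjusted p under 0.05 in edgeR was found for 5 of the 23, beside 16.5% of all genes tested. In edgeR's test 1 fell (4.35%, beside 4.46% of all genes) and none rose. It was COLGALT2, a galactosyltransferase that adds sugar to collagen hydroxylysine, at 9.85, 13.9 and 11.4 CPM in knockout libraries and 18.01, 20.3 and 17.7 CPM in wildtype libraries (log2 fold change -0.67, SE 0.16, adjusted p = 0.0323 in edgeR). The groups did not overlap, but it did not pass without knockout replicate 1 (adjusted p = 0.157 in edgeR), knockout replicate 3 (0.158) or wildtype replicate 1 (0.0919). The collagen chaperone SERPINH1 averaged 180 ± 19.4 CPM in the knockout and 141 ± 23.6 CPM in wildtype (SD, n = 3 each, adjusted p = 0.237 in edgeR), and the lysyl hydroxylase PLOD2 64.7 ± 0.947 CPM in the knockout and 79.7 ± 8.29 CPM in wildtype (adjusted p = 0.171 in edgeR).

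Of 13 genes that cut the propeptides off or activate the cutting enzymes, 10 were tested. Of these, 1 rose and 2 fell (30% together, beside 4.46% of all genes). TLL1, 1 of the 2 that fell, met the filter only through wildtype. ADAMTS2, the procollagen N-proteinase, stood at 8.31, 5.77 and 6.89 CPM in knockout libraries and at 14.0, 10.5 and 12.96 CPM in wildtype libraries, with no overlap (log2 fold change -0.84, SE 0.19, adjusted p = 0.0275 in edgeR). It did not pass in 6 of 14 other settings, including those without wildtype replicate 1 (adjusted p = 0.153 in edgeR), knockout replicate 3 (0.131), knockout replicate 2 (0.0883) and wildtype replicate 3 (0.0578). TLL1, a relative of the procollagen C-proteinase, had 1, 1 and 3 counts in knockout libraries and 17, 19 and 20 counts in wildtype libraries, a fitted log2 fold change of -3.47 (SE 0.56). In the fit with no filter it was -3.46 (adjusted p = 0.000198 in edgeR). PCSK5, a proprotein convertase, rose to 24.8, 33.0 and 22.4 CPM in knockout libraries, against 12.9, 15.0 and 11.1 CPM in wildtype libraries (log2 fold change 1.03, SE 0.17, adjusted p = 0.00424 in edgeR). The C-proteinase BMP1 itself averaged 10.2 ± 0.927 CPM in the knockout and 12.3 ± 1.14 CPM in wildtype (SD, n = 3 each, adjusted p = 0.414 in edgeR).

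None of the 5 lysyl oxidases that cross-link collagen passed edgeR's test. LOX alone had an unadjusted p under 0.05, as had 16.5% of all genes tested. LOX stood at 20.1, 16.2 and 17.8 CPM in knockout libraries and at 13.6, 12.3 and 13.9 CPM in wildtype libraries. These did not overlap, and its log2 fold change was 0.44 (SE 0.14, adjusted p = 0.117 in edgeR).

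Of 26 proteins that coat or bind fibrils, 16 were tested, 2 rose and none fell (12.5%, beside 4.46% of all genes). Of the 16, 7 had a positive and 9 a negative log2 fold change, with a median of -0.20. An unadjusted p under 0.05 in edgeR was found for 9 of the 16, beside 16.5% of all genes tested. AEBP1, a secreted protein that binds fibrillar collagen, had 402, 463 and 609 counts in knockout libraries and 21, 15 and 30 counts in wildtype libraries, or 20.6, 17.7 and 22.2 CPM against 0.826, 0.557 and 1.61 CPM. The gap between the groups was wide, with a log2 fold change of 4.39 (SE 0.29, adjusted p = 6.63e-06 in edgeR). THBS1, a thrombospondin of the pericellular matrix, rose to 50.9, 40.0 and 35.5 CPM in knockout libraries, against 23.3, 29.3 and 17.1 CPM in wildtype libraries (log2 fold change 0.85, SE 0.19, adjusted p = 0.0305 in edgeR). THBS1 did not pass without knockout replicate 1 (adjusted p = 0.0990 in edgeR), knockout replicate 2 (0.0772) or wildtype replicate 1 (0.115). COL9A1, a chain of the type IX collagen that decorates type II fibrils, stood at 2.00, 1.84 and 1.90 CPM in knockout libraries and at 0.904, 0.631 and 1.18 CPM in wildtype libraries (log2 fold change 1.09, SE 0.32, adjusted p = 0.0916 in edgeR). SPARC, a collagen-binding matrix protein, averaged 111 ± 31.0 CPM in the knockout and 32.9 ± 16.1 CPM in wildtype (SD, n = 3 each, adjusted p = 0.0813 in edgeR). Lower in the knockout without passing were FN1 (log2 fold change -0.54, SE 0.21), THBS2 (-0.28, SE 0.11) and COL19A1 (-0.36, SE 0.15). So was COL12A1 (-1.29, SE 0.46), which met the filter only through wildtype. COL9A1, SPARC and the other genes of these lists that are named without a call were chosen after their values were seen.

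Of 10 collagen receptors, all tested, DDR2 rose and none fell (10%, beside 4.46% of all genes). DDR2, a receptor tyrosine kinase that binds fibrillar collagens, stood at 8.77, 8.76 and 9.84 CPM in knockout libraries and at 4.64, 3.31 and 4.07 CPM in wildtype libraries (log2 fold change 1.19, SE 0.20, adjusted p = 0.00424 in edgeR). It passed in all 14 other settings. Of 11 genes of collagen breakdown, 6 were tested, 1 rose and none fell (16.7%, beside 4.46% of all genes). The 1 that rose was TIMP1, an inhibitor of matrix metalloproteinases. It stood at 29.2, 26.1 and 30.9 CPM in knockout libraries, against 18.4, 19.1 and 17.997 CPM in wildtype libraries (log2 fold change 0.63, SE 0.12, adjusted p = 0.00953 in edgeR). TIMP1 did not pass without knockout replicate 3 (adjusted p = 0.0776 in edgeR) or wildtype replicate 1 (0.0549).

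Of 24 other collagens, 19 were tested, 1 rose and 2 fell (15.8% together, beside 4.46% of all genes). COL24A1, the fibrillar chain of developing bone and cornea, had 20, 24 and 43 counts in knockout libraries and 65, 69 and 61 counts in wildtype libraries, or 1.03, 0.918 and 1.57 CPM against 2.56, 2.56 and 3.27 CPM. The groups did not overlap, with a log2 fold change of -1.24 (SE 0.30, adjusted p = 0.0413 in edgeR). Its call was lost in 7 of 14 other settings, with library size only (adjusted p = 0.0709 in edgeR), with upper-quartile scaling (0.0627), and in each fit that left out 1 library (0.0637 to 0.172) except that without wildtype replicate 2 (0.0100). COL25A1, a transmembrane collagen of neurons, fell to 6.98, 7.38 and 7.18 CPM in knockout libraries, against 15.7, 15.3 and 17.6 CPM in wildtype libraries (log2 fold change -1.17, SE 0.15, adjusted p = 0.000614 in edgeR). COL4A6, a basement membrane chain, rose to 60.3, 52.0 and 57.7 CPM in knockout libraries, against 38.1, 36.4 and 31.5 CPM in wildtype libraries (log2 fold change 0.68, SE 0.11, adjusted p = 0.00441 in edgeR). COL25A1 and COL4A6 passed in all 14 other settings.

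Of 30 genes that regulate collagen genes, 28 were tested and 1 fell (3.57%, beside 4.46% of all genes). The 1 that fell was PRRX1, a homeobox factor of limb and skin mesenchyme that met the filter only through wildtype. It had 5, 11 and 2 counts in knockout libraries and 157, 95 and 114 counts in wildtype libraries, a fitted log2 fold change of -4.38 (SE 0.46). In the fit with no filter it was -4.37 (adjusted p = 6.92e-10 in edgeR). SOX9, the factor that drives COL2A1 and COL11A2 in cartilage, had at most 1 count in any library of either genotype, although COL2A1 was abundant. Its partners SOX5 and SOX6 were present. SOX5 stood at 60.5, 92.9 and 58.0 CPM in knockout libraries and at 40.8, 51.1 and 41.6 CPM in wildtype libraries (log2 fold change 0.66, SE 0.18, adjusted p = 0.0627 in edgeR), and SOX6 averaged 26.5 ± 7.499 CPM in the knockout and 27.2 ± 1.91 CPM in wildtype (SD, n = 3 each).

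Markers of the cell types that make most fibrillar collagen were read beside these values. Of 10 fibroblast markers, 6 were tested and 1 rose (16.7%, beside 4.46% of all genes). It was the growth factor receptor PDGFRA, at 338, 443 and 297 CPM in knockout libraries, against 121, 203 and 89.8 CPM in wildtype libraries (adjusted p = 0.0343 in edgeR). Of the 6, 3 had an unadjusted p under 0.05, beside 16.5% of all genes tested. By sign, 2 had a positive and 4 a negative log2 fold change, and the median was -0.25. S100A4 stood at 2.87, 1.76 and 3.13 CPM in knockout libraries and at 5.07, 6.02 and 4.61 CPM in wildtype libraries, with no overlap (log2 fold change -1.02, SE 0.26, adjusted p = 0.0533 in edgeR). The summed fibroblast list was 512 to 663 CPM in knockout libraries and 244 to 412 CPM in wildtype libraries, nearly all of it PDGFRA and PDPN, while DPT, LUM and FAP had no count in any library. Of 9 chondrocyte markers 5 were tested and none passed edgeR's test or had an unadjusted p under 0.05, the sum was 5.51 to 10.6 CPM in knockout libraries and 6.65 to 9.24 CPM in wildtype libraries, and HAPLN1 was at 0 in all. Of 8 osteoblast markers 4 were tested and none passed edgeR's test. An unadjusted p under 0.05 was found for 2, ALPL (log2 fold change 0.35, SE 0.11) and RUNX2 (-0.72, SE 0.31), in opposite directions. The osteoblast sum was 44.0 to 51.2 CPM in knockout libraries and 36.6 to 41.0 CPM in wildtype libraries. Most of it was ALPL, which averaged 42.7 CPM in the knockout and 33.3 CPM in wildtype, and IBSP and DMP1 were at 0 in all. The part of the fibroblast list in the change of COL5A2 was not tested.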

How the data were processed

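The authors deposited unnormalized read counts for each gene symbol in 3 DEGS1 knockout and 3 wildtype libraries. Per the labels' protocols, libraries were made from 1 ug of RNA with a strand-marking kit and read as single 75 nt reads. Per the submitters' processing notes, bcl2fastq 2.20 and hg19 were used. For the aligner, counter, annotation and strand setting, the answer is not given in the sources used here. Overlapping or antisense reads could have been merged.

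The test was that of edgeR 4.0.16 (R 4.3.3, TMM scaling, filterByExpr, robust quasi-likelihood F test on genotype alone) and adjusted over all 16954 genes tested. SE is the size of the log2 fold change divided by √F. CPM uses TMM-scaled library sizes, and RPKM divides CPM by the longest coding transcript of GENCODE 29, so levels between chains are approximate. Profiles were compared on log2 CPM with a prior count of 2. No 2 libraries agreed within sampling noise (chi-square over its degrees of freedom, 12.8 to 52.9). Alternatives used DESeq2 1.42.0, limma 3.58.1, other scalings and filters, the replicate block, and each library left out. Of 189 list entries, 3 matched through an older symbol.

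The members and lists were chosen with earlier results of these data known. Named are all chains, COL24A1, DEGS1 and up to 4 passing genes per list or that with the smallest p. So are 3 neighbours on each side and the 3 nearest profiles of COL5A2 and COL11A1. Marker lists are given as sums, and of their genes above 1 CPM only PDGFRA and S100A4 are given per library.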

Additional observations from a re-analysis of the deposited data

How the results depend on the processing

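As a description, the 14 other settings gave COL5A2 3.02 to 3.33 and COL11A1 -11.8 to -9.04 on the log2 scale. The COL11A1 value of -11.8 came without knockout replicate 1, which held its only knockout count. Over all genes leave-one-out fits gave 380 to 3825 passing genes, beside 756, and within the collagen lists 7 to 37, beside 12. Among the chains besides COL5A2 and COL11A1, 0 passed, and 0 to 2 passed when a library was left out, 1 with the DESeq2 Wald test, 2 with no filter and 1 with the replicate block. These were COL27A1 and, without wildtype replicate 2 and with no filter, also COL3A1, which met the filter only through the knockout. The replicate block gave 1082 passing genes in all. Correlations of same-numbered libraries in their deviations from the group means were 0.22, 0.31 and -0.13, and knockout replicate 1 correlated best with wildtype replicate 3 (0.36). The labels give same-numbered libraries a shared code without saying what it marks, so they were not treated as pairs, and whether they share a batch was not settled. Knockout and wildtype replicates 2 were the closest pair across genotypes (chi-square over its degrees of freedom, 21.4). Of 543 values of single genes, 502 kept their side and direction, 22 lost and 8 gained a call, and 11 turned sign, all in genes that never passed. The 543 include COL5A2 and COL11A1, for which no call is read. Leaving out single libraries gave COL1A1 -0.054 to 0.48, COL1A2 -0.30 to 0.34, GULP1 -0.20 to 0.025, ASNSD1 -0.018 to 0.24, S1PR1 -0.11 to 0.20 and PRMT6 -0.10 to 0.17, and PRMT6 was -0.017 with library size only. The cause was not tested. Depth limits COL5A1, COL5A3 and COL3A1.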
